A study of Mus musculus with 24 samples.

Results

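The large cluster of replication-dependent histone genes on mouse chromosome 13 was followed through promoter capture Hi-C maps of cranial neural crest cells. The locus was taken as 2 blocks 1.45 Mb apart: a proximal block, whose captured promoter fragments (baits) span chr13:21695017-22043145, and a distal block, whose baits span chr13:23517430-23786130 (mm10). Every called pair with a bait in either block was kept, which gave 6299 distinct pairs of the 1242966 in the series. The members rested on 36 baits of 22203, of which 14 lay in the proximal and 22 in the distal block, and 27 held a histone gene (8 proximal, 19 distal). RefSeq lists 52 protein-coding histone genes in the blocks, 23 proximal and 29 distal, made up of 6 H1, 12 H2A, 14 H2B, 9 H3 and 11 H4 genes, and also 33 tRNA genes in the proximal and 13 in the distal block.

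The series holds 24 libraries in 12 groups of 2, all labelled as cranial neural crest cells of mouse embryos. At E11.5, the labels give the tissue as FNP, Mx, Md or PA2. Ezh2cKO cells came from all 4 tissues, Hoxa2PTE-36kb-del cells from Md and PA2, Hoxa2PTE-42kb-del cells from PA2, and WT cells from all 4 tissues. A last WT group holds NCCprogenitors at E8.5. Ezh2cKO is a conditional knockout of Ezh2, whose product is the Polycomb enzyme for methylation of histone H3 at lysine 27. Sorting is described for Wnt1::Cre;ROSARFP and Ezh2cKO embryos. The labels do not say where the deletions lie, what PTE stands for, which Cre removed Ezh2, or whether deletion embryos were sorted. Each library carried a batch label of its own, so batch and library cannot be told apart. Bulk maps of contacts do not give cell type markers. Cis calls of the Ezh2 bait were few (1 to 7 in Ezh2cKO, 1 to 12 in the 36kb deletion, 3 to 4 in the 42kb deletion, 2 to 7 in E11.5 WT and 3 to 5 in E8.5 WT), so they do not check the knockout.

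Replication-dependent histone genes supply the histones that package newly copied DNA. Their messages carry no introns and end in a stem-loop instead of a poly(A) tail, and they are made in S phase within the histone locus body, a nuclear body organised by the coactivator NPAT. In mammals the large cluster is broken up by other genes, among them tRNA genes, olfactory and vomeronasal receptor genes and zinc finger genes. Promoter capture Hi-C joins DNA ends that are close in the nucleus and enriches for ends at promoters, so a called pair is a HindIII fragment with a promoter and another fragment that were joined more often than the caller's background for that library predicts.

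The promoters of the genes that the contacts turned on are shown first: H2ac13 and H2ac11 lie in the proximal baits with the most calls, H4c6 and H2ac8 in distal baits with many calls to the other block, H1f6 in the bait with a separate set of trans calls, and H2ac19 in a chromosome 3 fragment that the locus reached in trans. They were chosen after the values were seen. Each line gives the 150 bases before the annotated start, 5′ to 3′ on the gene's strand (RefSeq, GRCm38.p6), with capitals marking exact matches, on either strand, of 3 motifs: TATAAA from the TATA box, the CCAAT box, and the octamer ATTTGCAT.
H2ac13 (chr13:21716262-21716411, plus strand): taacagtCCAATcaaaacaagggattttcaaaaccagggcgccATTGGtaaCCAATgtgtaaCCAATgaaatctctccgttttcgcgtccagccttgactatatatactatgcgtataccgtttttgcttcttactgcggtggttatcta
H2ac11 (chr13:22042950-22043099, minus strand): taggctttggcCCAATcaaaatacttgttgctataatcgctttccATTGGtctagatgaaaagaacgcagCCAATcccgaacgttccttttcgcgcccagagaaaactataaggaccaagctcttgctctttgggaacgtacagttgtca
H4c6 (chr13:23551669-23551818, minus strand): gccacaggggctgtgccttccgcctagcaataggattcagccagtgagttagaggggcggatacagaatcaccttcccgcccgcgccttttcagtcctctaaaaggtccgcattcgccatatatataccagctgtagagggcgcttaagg
H2ac8 (chr13:23571221-23571370, minus strand): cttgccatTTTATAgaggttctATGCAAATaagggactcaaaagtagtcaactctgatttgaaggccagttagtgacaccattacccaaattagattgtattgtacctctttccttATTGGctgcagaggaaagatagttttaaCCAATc
H1f6 (chr13:23695661-23695810, plus strand): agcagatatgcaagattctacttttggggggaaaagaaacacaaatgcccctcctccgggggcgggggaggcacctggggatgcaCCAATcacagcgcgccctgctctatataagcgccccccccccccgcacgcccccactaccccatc
H2ac19 (chr3:96240375-96240524, minus strand): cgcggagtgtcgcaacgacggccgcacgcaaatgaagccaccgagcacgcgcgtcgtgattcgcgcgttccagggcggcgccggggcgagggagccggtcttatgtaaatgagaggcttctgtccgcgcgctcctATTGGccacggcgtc

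Promoter sequences were found for 49 of the 52 histone genes; H3c7, H2bc4 and H3c1 had no entry. In windows of 250 bases before to 50 after the start, CCAAT, the box bound by the factor NF-Y, was present on either strand in 41 of 49 locus promoters (83.7%), against 37.9% of 27025 promoters of the same length. It was held by every matched H1, H2A, H2B and H3 promoter and by 3 of 11 H4 promoters. TATAAA, the core of the TATA box, was present in 29 of 49 (59.2%), against 14.2% of all promoters. ATTTGCAT, the octamer bound by POU factors, was present in 8 of 49 (16.3%), in 4 of 12 H2A and 4 of 13 H2B promoters and in no H1, H3 or H4 promoter, against 1.75% of all promoters. None of the 3 motifs contains another. Some H2A and H2B genes lie within 250 bases of each other, so their windows can share bases and a match can count for both. The H4c6 stretch above holds no match, which says only that these letters are not in those 150 bases.

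Libraries held between 142284 and 190343 called pairs, and 1506 to 2176 of them belonged to the histone locus. Per 10000 called pairs of a library, the locus took 114.2 ± 4.35 in Ezh2cKO (SD, n = 8), 112.1 ± 7.35 in the 36kb deletion (SD, n = 4), 121.2 and 121.3 in the 42kb deletion, 114.2 ± 2.98 in E11.5 WT (SD, n = 8) and 102.7 and 98.0 in E8.5 WT. Replicate libraries of a group shared a median of 53.8% of their locus pairs (46.7% to 58.8% over 12 groups), and libraries of different groups shared a median of 48.5% (39.0% to 56.2% over 264 pairs of libraries). Values below are per 10000 called pairs of the library unless given as calls. A p-value measures only the spread between these libraries, since the labels call all but the 42kb deletion libraries biological replicates without saying which embryos they share. In such bulk maps, a contact held by fewer cells and a contact that is weaker in each cell cannot be told apart.

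Pairs joining the proximal and distal blocks were the most frequent class of the locus. Over 24 libraries they made 16478 of 45583 calls, against 12444 elsewhere in cis, 10124 within the distal block, 5877 within the proximal block and 660 in trans. They also had the highest scores: the caller's score had a median of 12.3 for pairs between the blocks, 8.42 in trans, 8.36 within the distal block, 7.77 within the proximal block and 7.59 elsewhere in cis. Of 1752 distinct pairs between the blocks, 155 were called in all 24 libraries, as were 148 of 814 within the distal block, 80 of 498 within the proximal block, 49 of 2928 elsewhere in cis and 0 of 307 in trans. For the whole locus that share was 6.86% (432 of 6299), against 1.22% of all pairs of the series. The plot of the classes shows every library of every group.

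**Figure D1:**
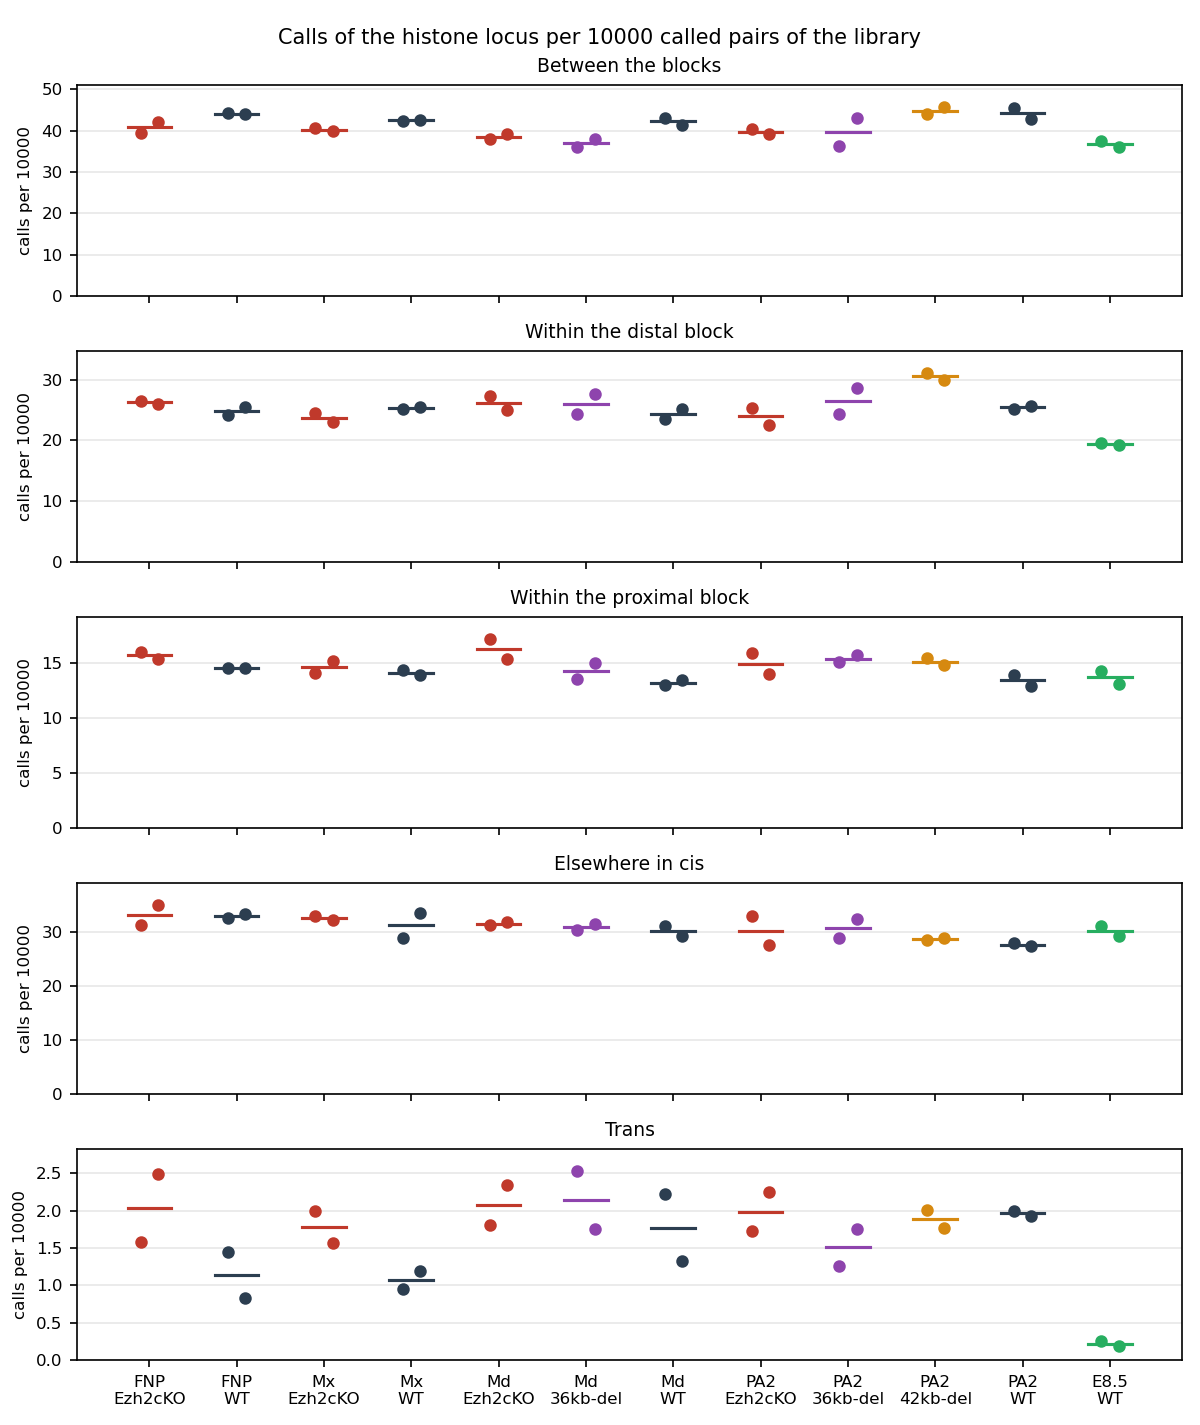
Calls of the histone locus per 10000 called pairs of the library (vertical axis), by class of pair (panels) and group (horizontal axis); points are the 2 libraries of a group and bars their mean. Both E8.5 libraries lie below every E11.5 WT library for pairs between the blocks, within the distal block and in trans, and Ezh2cKO libraries lie below the WT libraries of their own tissue for pairs between the blocks.

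The baits with the most calls held core histone genes. In the distal block, the bait with H2ac10, H3c8 and H4c8, which also holds 7 tRNA genes, had 160.0 ± 13.2 calls per library (SD over all 24), H4c6 had 119.9 ± 14.9, H2ac8 119.9 ± 15.8 and H3c6 108.3 ± 12.8. In the proximal block, the bait with H2ac13 and H2bc13 had 131.7 ± 13.8 calls, the bait with H2ac11 and H4c9 110.8 ± 11.7, Prss16, which encodes a thymus-specific serine protease, 90.7 ± 12.9, and the bait with the linker histone gene H1f5 and with H3c11 80.3 ± 10.9. The fewest calls came from the gene model Gm22452 (5 to 22, median 11) and from Trim38, a ubiquitin ligase gene at the far edge of the distal block (17.6 ± 4.59). Baits differ in length and in capture, so these counts do not rank contact strength.

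The baits of the locus stood high in the series for cis calls as a whole, and for those at 1 Mb or more alike. The 36 baits had a median of 52.5 cis calls per library, against 10.7 for the 10308 other baits with at least 5 cis calls on average, and 24 of the 36 lay above the 95th percentile of the others (39.3 calls). At 1 Mb or more the median was 28.0, against 1.21, and 25 of the 36 lay above the 95th percentile (16.0 calls). As a percentage of a bait's cis calls, those at 1 Mb or more had a median of 52.4% in the locus, against 11.1% in the others, and 0 of the 36 lay above the 95th percentile (95.5%). By number of calls at 1 Mb or more, the bait with H2ac10, H3c8 and H4c8 ranked 9 among 10344 with 104.0 calls, the bait with H2ac11 and H4c9 ranked 13 with 87.0, and the bait with H2ac13 and H2bc13 ranked 16 with 80.5. The partner block lies at more than 1 Mb from every bait, so the rule's own choice of a locus in 2 blocks is part of this order.

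Contacts between the blocks were called most often between 2 histone baits. Of 152 bait pairs that join a histone bait of one block to a histone bait of the other, 151 were called in at least 1 library, 126 in 12 or more and 50 in all 24. Where 1 of the 2 baits held no histone gene, 107 of 138 were ever called, 46 in 12 or more libraries and 6 in all 24, and where neither did, 6 of 18 were ever called and none in 12 or more. The median bait pair was called in 22, 4 and 0 libraries of these 3 kinds. Bait pairs share baits, so these are counts without a test.

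**Figure D2:**
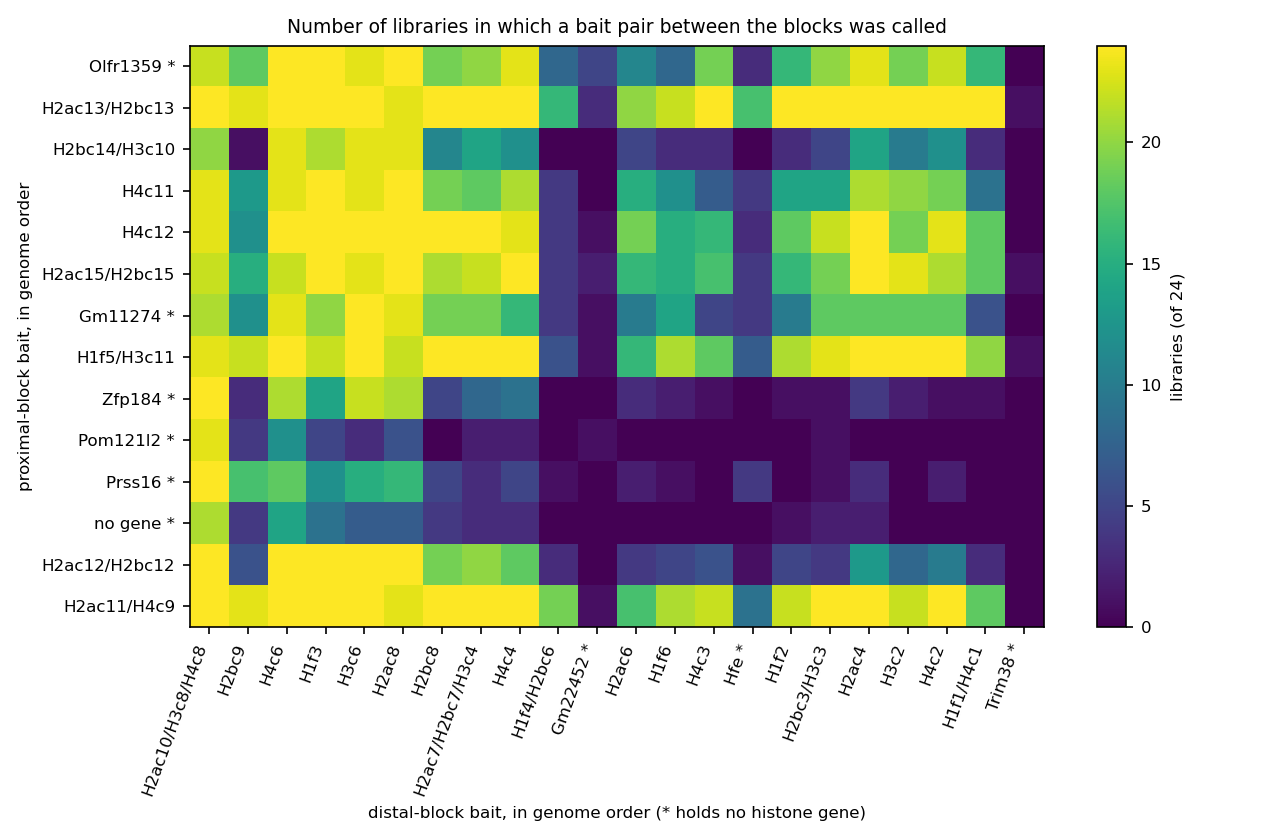
Number of the 24 libraries (colour) in which each proximal-block bait (rows) and distal-block bait (columns) were called as a pair, in genome order, with asterisks on baits that hold no histone gene. Columns for Gm22452, Hfe and Trim38 and rows for Pom121l2, Prss16, Zfp184 and the bait with no gene are mostly dark, and so is the column of H1f4 with H2bc6, while the other histone rows and columns hold most of the bright cells.

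Among single pairs, the best supported between the blocks started at H4c6 or H2ac8. H4c6 was paired with the bait of H2ac11 and H4c9 at 1510 kb in all 24 libraries, with a median score of 75.7, and with the bait of H2ac13 and H2bc13 at 1835 kb in all 24, with a median score of 53.9. H2ac8 was paired in all 24 libraries with fragments of no annotated gene that lie between the baits of H2ac12 and H2ac11, at 1532 and 1529 kb, with median scores of 55.5 and 52.9. Within the proximal block the leading pair joined baits near its outer ends, those of H2ac12 with H2bc12 and of H2ac13 with H2bc13, at 318 kb and a median score of 42.8 in all 24 libraries. Within the distal block the leading pair, H2bc8 with H3c6, spanned 10.6 kb, and H2ac4 with H2ac8 spanned 181 kb, both in all 24 libraries.

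Baits without a histone gene varied widely across the blocks. Trim38 was never called with 11 of the 14 proximal baits, and Hfe, an iron regulator in the middle of the distal block, with 4, as many as the histone bait of H1f4 and H2bc6. In the proximal block, Pom121l2 was never called with 12 of the 22 distal baits, but Olfr1359 and Gm11274 were each never called with only 1. The Olfr1359 bait is named for an olfactory receptor gene that it overlaps. It also holds 2 tRNA genes and directly adjoins the bait of H2ac13 with H2bc13. Olfr1359 was called in 12 or more libraries with 16 distal baits and Gm11274 with 14, against 9 each for the histone baits of H2bc14 with H3c10 and of H2ac12 with H2bc12. No test of this was made. Counted by other ends, fragments with a histone gene in the proximal block received 12.5 calls per fragment and library, those with a tRNA gene 4.55, those with another coding gene 2.73 and those with neither 5.22. In the distal block the values were 7.70 with a histone gene, 6.35 with a tRNA gene, 0.608 with another coding gene and 1.88 with neither. Per kb of fragment the proximal values were 2.42 with a histone gene, 0.875 with a tRNA gene, 0.946 with another coding gene and 2.39 with neither, and the distal values 1.46, 0.813, 0.180 and 1.06 in the same order. The difference between histone fragments and those with neither therefore depends on the scale in both blocks, and in the distal block tRNA fragments lay above those with neither per fragment and below them per kb.

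Elsewhere in cis, calls gathered at a few windows, whose borders were drawn after the values were seen. The window of 100 kb next to the distal block, with the transcription activator gene Abt1, 22 tRNA genes and the milk fat protein gene Btn1a1, held 42.7% of these calls, and more of them came from proximal (3613) than from distal baits (1699). The window from 21.15 to 21.35 Mb with Trim27 and 24 tRNA genes held 16.6%, and the window from 23.25 to 23.4 Mb with 10 tRNA genes and Zfp322a held 12.6%. The 1200 kb of vomeronasal receptor genes between the blocks held 1.91%. Between 21.15 and 24.95 Mb, outside the blocks, the 30 listed fragments with a tRNA gene, 4.01% of 749, took 32.6% of the calls. That was 5.32 per fragment and library, against 0.458 for the others, without regard to fragment length.

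**Figure D3:**
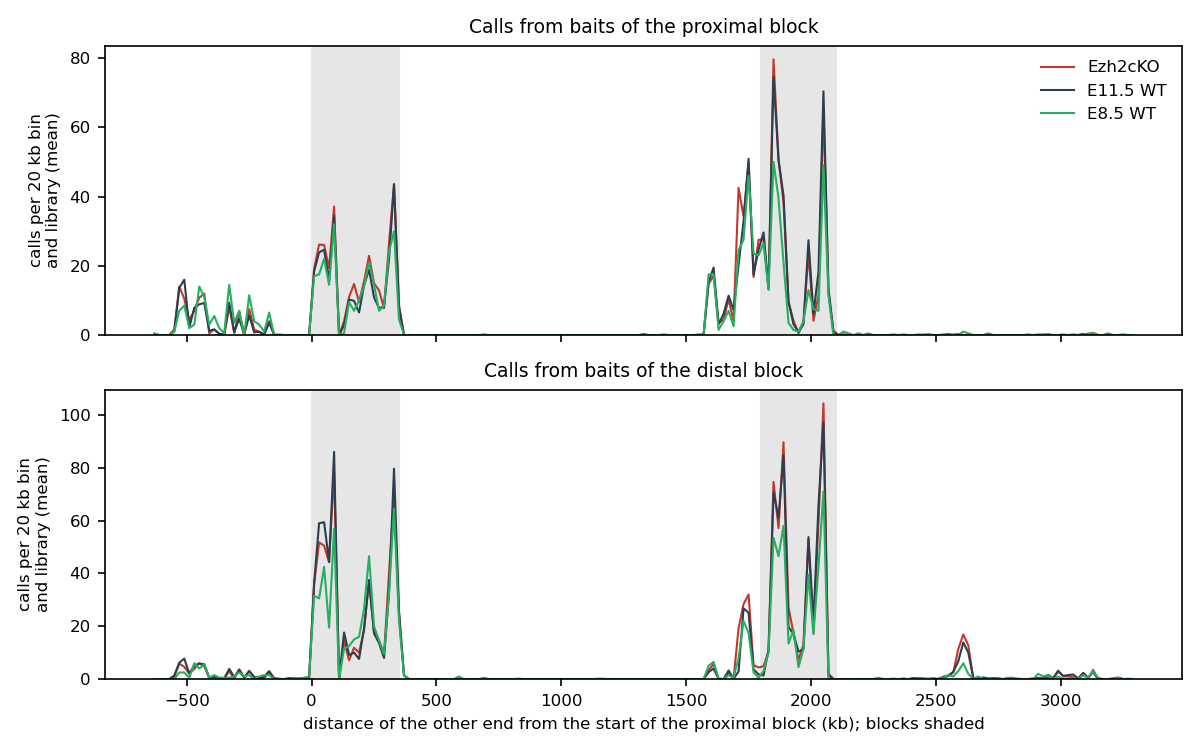
Mean calls per 20 kb bin and library (vertical axis) from proximal-block baits (upper panel) and distal-block baits (lower panel), by distance of the other end from the start of the proximal block (horizontal axis, kb; blocks shaded), for Ezh2cKO, E11.5 WT and E8.5 WT. Calls fall on the 2 blocks and on the windows flanking them, and the stretch between is near 0 in each of the 3 groups.

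At E11.5, WT cells had more pairs between the blocks than E8.5 WT cells. The 8 E11.5 WT libraries had 41.5 to 45.6 such pairs per 10000 (median 43.0), against 37.4 and 36.1 in E8.5 WT. Pairs within the distal block numbered 23.6 to 25.7 (median 25.2) in E11.5 WT, against 19.5 and 19.3 in E8.5 WT. In both classes every E11.5 WT library lay above both E8.5 libraries, by 6.54 and 5.59 in the means. The exact two-sided permutation test over libraries gave p = 0.0222 for each, the smallest that 8 against 2 libraries allows, and p = 0.0889 after Benjamini-Hochberg adjustment over the 20 class tests, so neither passed 0.05.

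Trans pairs followed the same order, at 0.830 to 2.22 per 10000 in E11.5 WT (median 1.39), against 0.258 and 0.184 in E8.5 WT (exact permutation p = 0.0222, adjusted p = 0.0889). Pairs within the proximal block differed by 0.15 in the means, 13.8 ± 0.65 in E11.5 WT (SD, n = 8) against 14.3 and 13.1 in E8.5 WT, and pairs elsewhere in cis by 0.30, 30.6 ± 2.45 in E11.5 WT (SD, n = 8) against 31.2 and 29.3. In both of these classes the groups overlapped.

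Bait by bait, limma was fitted to log2 calls per library total over all baits, for cis calls (10344 baits), for cis calls at 1 Mb or more (9077) and for trans calls (511), with Benjamini-Hochberg adjustment. Of the 36 locus baits, 8 rose in cis calls in E11.5 WT against E8.5 WT and none fell. That is 22.2% higher, where 18.6% of all baits were higher and 10.3% lower (28.9% called). Of 35 tested at 1 Mb or more, 12 rose and none fell, 34.3% higher, where 11% of all baits were higher and 3.8% lower (14.8% called). The median log2 change of the locus was 0.23 in cis and 0.31 at long range, against 0.03 and -0.04 over all baits tested.

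The firmest of these rises were at H4c2, an H4 gene at the far end of the distal block, H4c11, an H4 gene of the proximal block, and the gene model Gm11274. H4c2 had 33 to 45 cis calls in E11.5 WT (median 38.5), against 16 and 24 in E8.5 WT, a log2 change of 0.87 ± 0.15 (SE; limma adjusted p = 0.000169). H4c11 had 28 to 40 calls at 1 Mb or more in E11.5 WT (median 38), against 15 and 17 in E8.5 WT, a log2 change of 1.08 ± 0.20 (limma adjusted p = 8.3e-05). Gm11274 had 44 to 65 cis calls in E11.5 WT (median 51.5), against 29 and 32 in E8.5 WT, a log2 change of 0.66 ± 0.16 (limma adjusted p = 0.003). In each of these 3 baits the groups did not overlap, and the call held without either E8.5 library and without each E11.5 WT library in turn.

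The other stage calls rested on few libraries. H2ac6, an H2A gene, had 52 to 60 cis calls in E11.5 WT, against 31 and 31 in E8.5 WT (log2 change 0.74 ± 0.17, limma adjusted p = 0.0033), and without E8.5 replicate 2 its adjusted p was 0.0516. The largest of these fitted changes, 2.66 ± 0.62 for H2bc9 (limma adjusted p = 0.0028), came from E8.5 replicate 2, where the bait had 0 cis calls: the other E8.5 library had 12 and E11.5 WT libraries 14 to 20, and without replicate 2 the change was 0.30 (adjusted p = 0.563). Gm22452 (1.00), H1f2 (0.56), H2bc8 (0.52) and H2ac4 (0.43) also passed in cis, and each lost its call without E8.5 replicate 2 (adjusted p of 0.149, 0.112, 0.141 and 0.138), H1f2 and H2bc8 also without replicate 1. At 1 Mb or more only H4c11 and Gm11274 kept their calls without each of the 10 libraries in turn.

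The long-range rises include the proximal bait with the most calls, H2ac13 with H2bc13. It had 74 to 95 calls at 1 Mb or more in E11.5 WT (median 82.5), against 56 and 57 in E8.5 WT (log2 change 0.49 ± 0.13, limma adjusted p = 0.0048; 0.119 without E8.5 replicate 2). H1f5 with H3c11 had 47 to 59 in E11.5 WT (median 53), against 26 and 37 in E8.5 WT (0.69 ± 0.17, limma adjusted p = 0.0029; 0.206 without E8.5 replicate 1). H1f6, the testis linker histone gene, had 11 to 22 in E11.5 WT (median 17.5), against 13 and 5 in E8.5 WT (0.97 ± 0.30, limma adjusted p = 0.0188), and without E8.5 replicate 2 its change was 0.26 (limma adjusted p = 0.725). H2bc9 (2.46), H2ac6 (1.25), Gm11274 (1.03), H2bc14 with H3c10 (1.03), H4c2 (0.94), H2ac15 with H2bc15 (0.70), H2ac4 (0.63) and H4c12 (0.60) also passed at 1 Mb or more, and each of them except Gm11274 was lost without at least 1 of the E8.5 libraries.

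**Figure D4:**
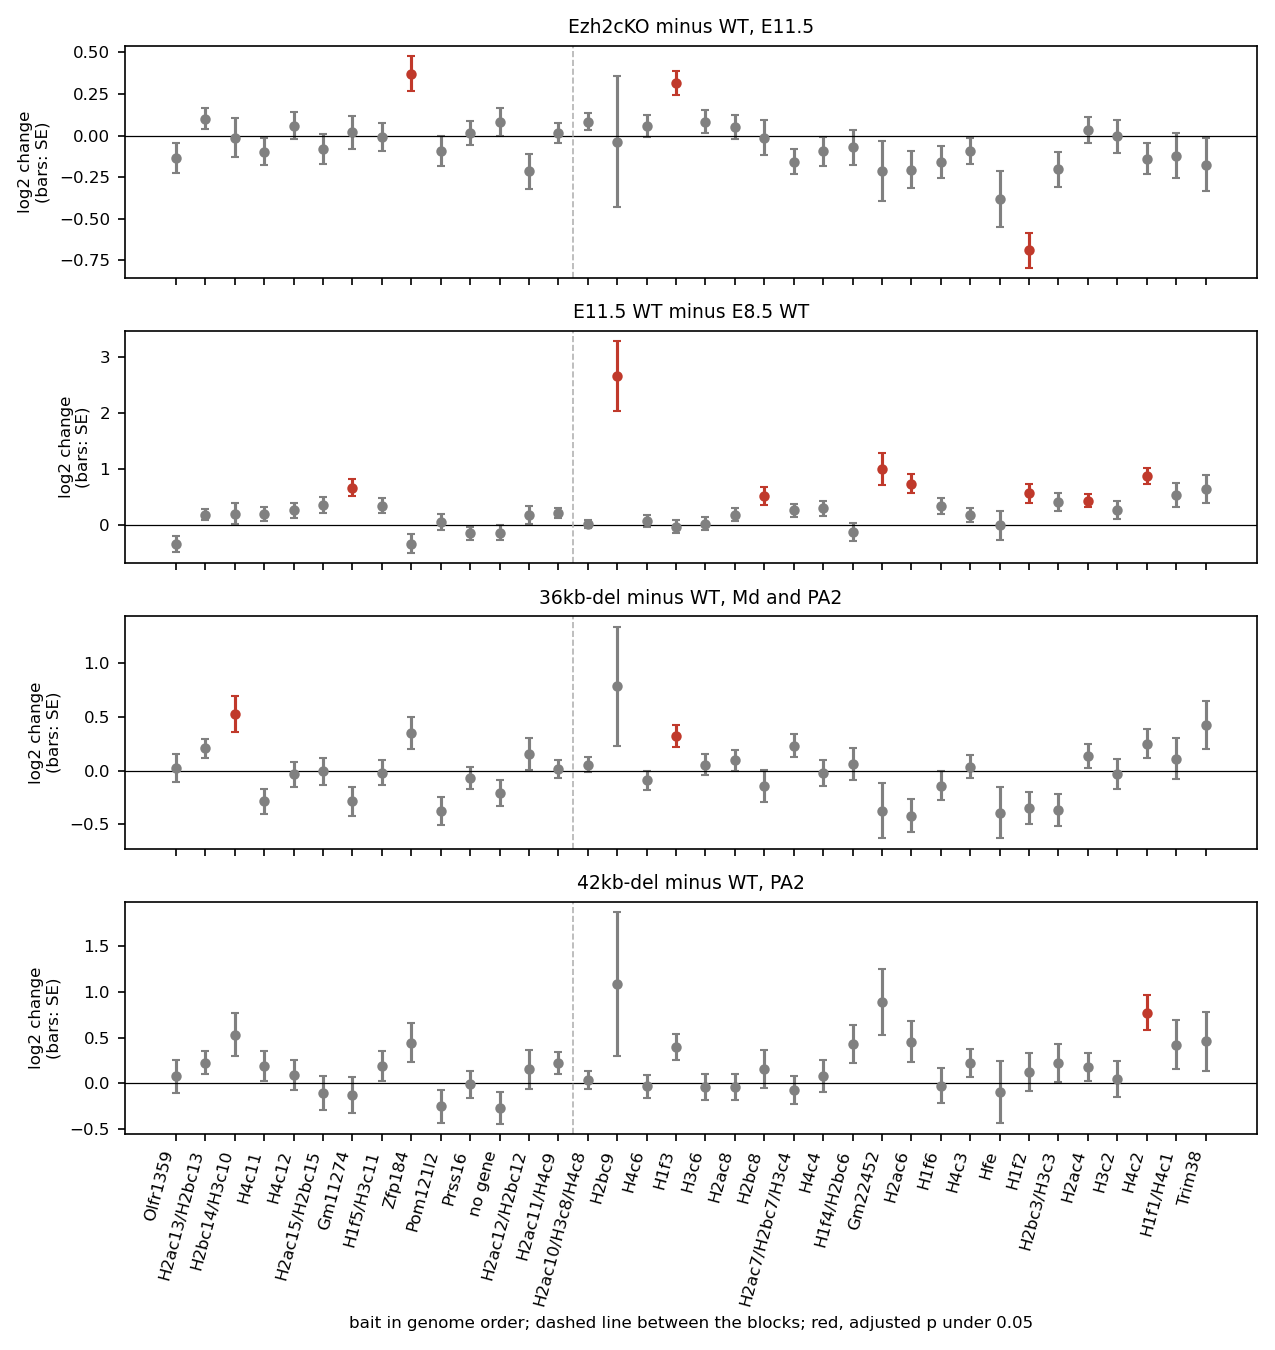
Log2 change in cis calls of the 36 locus baits in genome order (horizontal axis) from limma, with SE bars, for Ezh2cKO minus WT, E11.5 WT minus E8.5 WT, 36kb-del minus WT and 42kb-del minus WT; red points had an adjusted p under 0.05. H1f2 is the only red point below 0, in the Ezh2cKO panel, and the 8 red points of the stage panel are all above 0.

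Pairs called at 1 stage only were found in each cis class. Of 1455 eligible locus pairs, 140 (9.62%) were called in at least 7 of 8 E11.5 WT and in neither E8.5 library, against 11.4% of pairs in the series, made up of 61 of 562 eligible pairs between the blocks, 43 of 342 within the distal block, 15 of 212 within the proximal block and 21 of 339 elsewhere in cis. The opposite pattern, both E8.5 libraries and at most 1 of 8 E11.5 WT, was held by 85 pairs (5.84%), against 18.8% in the series. The 8 leading E11.5-only pairs all joined the blocks, among them H2ac8 with a fragment of no gene beside H2bc14 at 1845 kb (22 libraries, median score 33.5) and 4 pairs of the bait with H1f5 and H3c11. E8.5-only pairs were called in few libraries in all, from 2 to 9 for the 8 leading ones.

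Among WT tissues at E11.5 the locus showed no difference that passed the test. The F test over FNP, Mx, Md and PA2 called 0 locus baits in cis calls, where it called 0.271% of all baits, 0 at 1 Mb or more (0.0441% of all) and 0 in trans calls (0% of all), with 0, 0 and 1 locus baits at an unadjusted p under 0.05. The F test of the Ezh2cKO effect between tissues also called 0 locus baits in the 3 fits (0.00967%, 0% and 0% of all baits), with none at an unadjusted p under 0.05. Pairs between the blocks in WT were 44.3 and 44.0 in FNP, 42.4 and 42.6 in Mx, 43.2 and 41.5 in Md, and 45.6 and 42.8 in PA2.

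Ezh2cKO cells had fewer pairs between the blocks than WT cells of the same tissue. Ezh2cKO libraries had 39.5 and 42.1 in FNP, 40.6 and 39.9 in Mx, 37.9 and 39.3 in Md, and 40.3 and 39.1 in PA2, against the WT values just given. In each of the 4 tissues both Ezh2cKO libraries lay below both WT libraries, although the groups overlapped across tissues. Outside the locus, calls at 1 Mb or more averaged 3.15 to 5.08 per bait in Ezh2cKO, against 4.18 to 4.72 in WT. These calls, not divided by library totals, were lower in both Ezh2cKO libraries of Md and PA2 and overlapped in FNP and Mx. In limma, calls at 1 Mb or more were divided by each library's own total of such calls. On that scale the locus baits had a median log2 change of 0.04, against 0.02 over all baits tested. Those calls include pairs other than those between the blocks. Whether the difference in pairs between the blocks goes beyond a change in long-range calls over the series was not tested by itself. The means of pairs between the blocks were 39.9 ± 1.24 in Ezh2cKO and 43.3 ± 1.29 in WT (SD, n = 8 each), a difference of -3.46 (exact permutation test within tissue, two-sided, p = 0.00154, the smallest it can give; adjusted p = 0.0309). The call was lost without FNP WT replicate 1 or replicate 2 (exact permutation test, adjusted p = 0.0617 each), with a difference of -3.80 to -3.11 over the 16 fits that left out 1 library, and the number of such pairs, not divided by the library total, did not pass (exact permutation test, adjusted p = 0.185).

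Pairs within the proximal block went the other way. Ezh2cKO libraries had 14.0 to 17.2 per 10000 (median 15.4), against 13.0 to 14.6 (median 13.9) in WT, a difference of 1.56 (exact permutation p = 0.00463, adjusted p = 0.0463). Both Ezh2cKO libraries lay above both WT libraries in FNP, Md and PA2, and the groups overlapped in Mx. The call was lost in 8 of 16 fits that left out 1 library (both FNP, both PA2, Mx replicate 2 and Md replicate 1 of WT, and Mx replicate 2 and PA2 replicate 1 of Ezh2cKO), with differences of 1.32 to 1.80 and adjusted p up to 0.139 over all 16. Among scores of 7 or more the difference was 2.91 (exact permutation test, adjusted p = 0.11). Pairs within the distal block (22.5 to 27.2 in Ezh2cKO, 23.6 to 25.7 in WT) differed by 0.04 and pairs elsewhere in cis (27.7 to 35.0 in Ezh2cKO, 27.4 to 33.7 in WT) by 1.39 in the means. Neither passed the exact permutation test (adjusted p = 1 and 0.333).

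Of single baits, H1f2 lost the most in Ezh2cKO. This linker histone gene of the distal block had 25 to 43 cis calls in Ezh2cKO (median 31), against 41 to 55 in WT (median 50), and only FNP Ezh2cKO replicate 1, with 43, reached the WT range. Its log2 change was -0.69 ± 0.10 (SE; limma adjusted p = 0.000158). At 1 Mb or more it had 6 to 17 calls in Ezh2cKO (median 8.5), against 13 to 25 in WT (median 22), a log2 change of -1.02 ± 0.21 (limma adjusted p = 0.000537). Nearly all of these went to the proximal block, 6 to 16 in Ezh2cKO (median 8) against 12 to 23 in WT (median 20.5). Both Ezh2cKO calls of H1f2 held under each alternative and without each library in turn.

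A pair of baits rose in Ezh2cKO. H1f3, a linker histone gene next to H4c6, had 89 to 116 cis calls in Ezh2cKO (median 106.5), against 71 to 96 in WT (median 79.5), with overlap, a log2 change of 0.32 ± 0.07 (limma adjusted p = 0.0064); at 1 Mb or more its change was 0.48 ± 0.10 (limma adjusted p = 0.000485). Zfp184, a zinc finger gene of the proximal block whose bait holds a tRNA gene, had 69 to 105 in Ezh2cKO (median 84.5), against 51 to 79 in WT (median 62.5), a log2 change of 0.37 ± 0.11 (limma adjusted p = 0.0273). The Zfp184 call in cis was lost without any of 8 of the 16 libraries, FNP replicate 2, Mx replicate 2, Md replicate 1 and PA2 replicate 1 of WT and FNP replicate 1, Mx replicate 2, Md replicate 1 and PA2 replicate 1 of Ezh2cKO (adjusted p up to 0.0809), and at scores of 7 or more (0.0679). Zfp184 also passed at 1 Mb or more (0.48 ± 0.13, limma adjusted p = 0.0146), with 31 to 48 calls in Ezh2cKO (median 37.5), against 26 to 36 in WT (median 28). That call was lost without FNP replicate 1, Mx replicate 2 or PA2 replicate 1 of Ezh2cKO (limma adjusted p up to 0.0802), without division by the library total (0.11) and at scores of 7 or more (0.104). H1f3 kept both of its calls in each of these settings.

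These counts can be read against the whole series. In cis, 3 of 36 locus baits passed (8.33%), 2 higher and 1 lower, where 10.8% of all baits passed (5.38% higher, 5.39% lower). At 1 Mb or more 3 of 35 passed (8.57%), 2 higher and 1 lower, where 5.86% of all did (2.46% higher, 3.4% lower). The median log2 change of the locus was -0.05 in cis and 0.04 at 1 Mb or more, against 0.01 and 0.02 over all baits. Of 1365 eligible pairs, 11 were lost in Ezh2cKO, being present in no more than 1 of the 8 Ezh2cKO and in 7 or 8 of the WT libraries, 0.806% against 2.24% in the series, and 36 were gained by the reverse rule, 2.64% against 1.62%. Of the 36 gained pairs 20 lay elsewhere in cis, 8 within the distal block and 3 in trans.

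Of the 8 leading gained pairs by score, 5 lay in cis and ended in 2 neighbouring fragments beside the distal block. The fragment of no annotated gene at chr13:23402119-23402902 was called in all 8 Ezh2cKO libraries, and in at most 1 of 8 WT libraries, with each of the baits of H2ac13 with H2bc13, Zfp184, and H2ac10 with H3c8 and H4c8. The bait of H2ac13 with H2bc13 was paired with that fragment in 8 of 8 Ezh2cKO, 4 of 4 36kb deletion, 2 of 2 42kb deletion, 1 of 8 E11.5 WT and 1 of 2 E8.5 libraries. Not all baits gained it: Prss16 was paired with it in 8 of 8 Ezh2cKO, 7 of 8 E11.5 WT and 2 of 2 E8.5 libraries. Prss16 also held this pair in 4 of 4 36kb deletion and 0 of 2 42kb deletion libraries. The next fragment was called in all 8 Ezh2cKO and at most 1 WT library with H2ac12 with H2bc12 and with H4c6. In the 36kb deletion, the gained pairs of Zfp184, H2ac10 with H3c8 and H4c8, and H2ac12 with H2bc12 were called in 4 of 4 libraries. That of H4c6 was called in 3 of 4. In the 42kb deletion each of these pairs was called in 0 of 2 libraries. The whole window of 100 kb next to the distal block, with Abt1 and its tRNA genes, held 240 to 285 calls of the locus in Ezh2cKO, against 189 to 224 in E11.5 WT, with no overlap, and 179 to 244 in the 36kb deletion, 173 and 182 in the 42kb deletion and 195 and 195 in E8.5 WT. The window with Cmah, the gene of a sialic acid hydroxylase, held 41 to 50 calls in Ezh2cKO, against 25 to 42 in E11.5 WT and 15 and 15 in E8.5 WT. These counts are not divided by library totals, so the ranges do not compare groups on 1 scale. The totals were 164248 to 190343 called pairs in Ezh2cKO, 168670 to 176164 in E11.5 WT and 142284 to 154232 in the 36kb deletion. These windows were picked after their values were seen and have no test.

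In trans, the locus was paired with the smaller histone gene cluster on chromosome 3. Of its 660 trans calls, 313 (47.4%) ended within 20 kb of the histone genes there, 267 of them from 17 distal baits and 46 from 9 proximal baits. The fragment with H4c14 received 112 of these, that with H2ac19 and H3c15 88, that with H2ac18 and H3c14 55 and that with H2bc18 and H3c13 17. The baits that gave most were H2ac8 (49), H3c6 (30) and H4c6 (29). Histone genes on chromosome 11 received 13 calls, of which 6 were in PA2 WT replicate 2, and the one on chromosome 6 none.

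These chromosome 3 calls differed in number between groups. Ezh2cKO libraries held 5 to 15 (median 8.5), the 36kb deletion 6, 6, 2 and 14, the 42kb deletion 20 and 20, E11.5 WT 11 to 31 (median 19.5) and E8.5 WT 0 and 0. Ezh2cKO and E11.5 WT overlapped, and neither E8.5 library held such a call. Library totals of trans calls over all baits ran the other way between those genotypes, 5899 to 7927 in Ezh2cKO and 4983 to 5726 in E11.5 WT, and were 5280 and 5571 in E8.5 WT. No test of this sum was made. Summed over the histone genes of chromosomes 3, 6 and 11, calls averaged 20 in the 42kb deletion, 21 with the wider limit of 100 kb and 13.5 with scores of 7 or more, against 22 in E11.5 WT, or 12.8 with scores of 7 or more.

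By bait, 6 locus baits reached the mean of 1 trans call over all libraries that the fit required. Where the group with fewer calls did not reach that mean by itself, the bait entered the fit only through the group in which it was higher, so its values are given without a test. H2ac8 reached it in Ezh2cKO and in WT. It had 0 to 3 trans calls in Ezh2cKO (median 2), against 2 to 6 in WT (median 4), with overlap, a log2 change of -1.59 ± 0.42 (limma adjusted p = 0.0056), where 43.1% of all 511 baits tested were called (16.2% higher, 26.8% lower). H4c6 had 0 to 2 trans calls in Ezh2cKO (median 0.5), against 0 to 4 in WT (median 2). H4c2 had 0 to 3 in Ezh2cKO (median 0.5), against 1 to 6 in WT (median 1). Both overlapped between genotypes.

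Apart from H1f6, the baits with most trans calls were at 0 in both E8.5 libraries. H2ac8 had 2 to 6 trans calls in E11.5 WT, against 0 and 0 in E8.5 WT, and H4c6, H3c6 and H4c2 had at most 4, 3 and 6 in E11.5 WT, against 0 and 0 in E8.5 WT. These baits entered the fit through E11.5 libraries, so no test and no fold is given. Among all baits in that fit 11.2% were called (6.26% higher, 4.89% lower), and nothing is read from the 4 locus baits against this share.

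The trans calls of H1f6 lay mainly in Ezh2cKO and the 36kb deletion. This bait had 14 to 23 trans calls in Ezh2cKO (median 19), 22, 15, 13 and 9 in the 36kb deletion, 0 and 1 in the 42kb deletion, 0 to 2 in E11.5 WT (median 0) and 1 and 0 in E8.5 WT. Ezh2cKO and the 36kb deletion lay apart from all other groups. The bait entered the trans fit through those groups alone, so this is a description without a test.

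Nearly all of these calls went to a single region, chromosome 4 from 145 to 148 Mb, which was singled out after the values were seen. The H1f6 bait made 196 calls to 64 fragments there, 29.7% of the trans calls of the locus, and the other 35 locus baits made 0. Ezh2cKO libraries held 14 to 21 of them, the 36kb deletion 22, 15, 13 and 9, the 42kb deletion 0 and 0, E11.5 WT 0 in all 8 libraries and E8.5 WT 1 and 0. The region received 557 trans calls in all, and no fragment other than H1f6 gave more than 16. RefSeq lists 27 protein-coding genes there, 17 of them named Zfp, Znf or Rex2. Over all trans calls of the locus, Ezh2cKO had 1.56 to 2.49 per 10000 (median 1.90), against 0.830 to 2.22 (median 1.39) in WT, a difference of 0.48 (exact permutation p = 0.0386, adjusted p = 0.129). Without the H1f6 bait, an alternative added after seeing the data, the difference was -0.53 (exact permutation test, adjusted p = 0.0874).

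**Figure D5:**
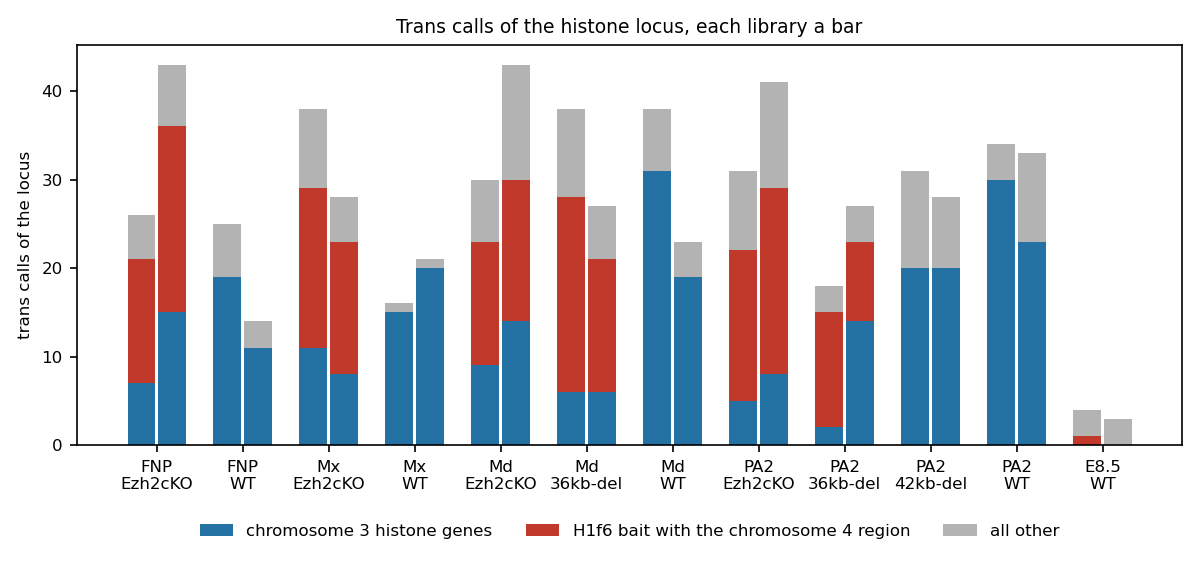
Trans calls of the locus in each library (bars, vertical axis in calls) by group (horizontal axis), split into calls with chromosome 3 histone genes, calls of the H1f6 bait with the chromosome 4 region and all others. The chromosome 4 part is present in every Ezh2cKO and 36kb-del library, at 9 to 22 calls, absent from every 42kb-del and E11.5 WT library and 1 call in E8.5 WT, and the chromosome 3 part is absent at E8.5.

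The 36kb deletion changed no class of the locus past the threshold. Pairs between the blocks were 36.1 and 38.1 in Md and 36.2 and 43.0 in PA2 of the deletion, against 43.2 and 41.5 in Md and 45.6 and 42.8 in PA2 of WT, a difference of -4.90 (exact permutation p = 0.111, adjusted p = 0.278; the smallest p these libraries allow is 0.0556). PA2 deletion replicate 2 overlapped WT, and without it the difference was -6.62. Pairs within the proximal block were 13.6, 15.0, 15.1 and 15.7 in the deletion, against 13.0, 13.4, 13.9 and 13.0 in WT (difference 1.52, exact permutation p = 0.0556, adjusted p = 0.159). The distal, elsewhere in cis and trans classes differed by 1.40, 1.82 and -0.04 (exact permutation tests, adjusted p = 0.556, 0.333 and 1).

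Few baits passed in the 36kb deletion, and their calls rested on scale and on single libraries. In cis, 2 of 36 rose, where 11.1% of all baits were called (5.46% higher, 5.65% lower). The median log2 change of the locus was 0.002 in cis and 0.11 at 1 Mb or more, against 0.04 and 0.07 over all baits tested. The bait with H2bc14 and H3c10 had 22 and 21 calls in Md and 28 and 26 in PA2 of the deletion, against 17 and 18 in Md and 24 and 18 in PA2 of WT (log2 change 0.52 ± 0.17, limma adjusted p = 0.0468). H1f3 had 84, 85, 85 and 97, against 86, 80, 79 and 76 in WT (0.32 ± 0.10, limma adjusted p = 0.0437). The H1f3 call was lost without each of the 8 libraries and the other without 6 of them (adjusted p up to 0.127 and 0.179), and both were lost when counts were not divided by the library total (0.482 and 0.196).

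At 1 Mb or more, Zfp184 rose, with 30, 41, 25 and 31 calls in the deletion, against 26, 28, 28 and 27 in WT (log2 change 0.66 ± 0.18, limma adjusted p = 0.0372; 2.23% of all baits called, 0.947% higher and 1.28% lower). The groups overlapped in calls, and without division by the library total the change was 0.20 (limma adjusted p = 0.609). The call was also lost without any 1 of 7 libraries, all except Md deletion replicate 1. In trans, H2ac8 had 1, 1, 0 and 3 calls in the deletion, against 6, 3, 4 and 4 in WT (log2 change -1.64 ± 0.59, limma adjusted p = 0.0439; 33.1% of all baits called, 9% higher and 24.1% lower). That call was lost without any 1 of 7 libraries (limma adjusted p up to 0.225), all except PA2 deletion replicate 2. H4c2 had 0, 1, 0 and 0 in the deletion, against 6, 2, 1 and 1 in WT, and has no test because it entered the fit through the other libraries.

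In the 42kb deletion, pairs within the distal block were more frequent. They numbered 31.1 and 30.0 in the deletion, against 25.1 and 25.7 in PA2 WT, a difference of 5.10, with no overlap. With 2 libraries against 2 the smallest exact permutation p is 0.333, which this difference gave (adjusted p = 0.513). The proximal block (15.4 and 14.8 in the deletion, 13.9 and 13.0 in WT) and elsewhere in cis (28.6 and 29.0 in the deletion, 28.0 and 27.4 in WT) also lay apart, at the same p. Pairs between the blocks (44.1 and 45.7 in the deletion, 45.6 and 42.8 in WT) and trans pairs (2.01 and 1.77 in the deletion, 2.00 and 1.93 in WT) overlapped.

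One bait passed in the 42kb deletion. H4c2 had 55 and 54 cis calls in the deletion, against 37 and 33 in PA2 WT (log2 change 0.77 ± 0.19, limma adjusted p = 0.0392), 1 of 36 locus baits where 1.84% of all were called (0.822% higher, 1.02% lower). The call was lost without any 1 of the 4 libraries (log2 change 0.69 to 0.86, adjusted p up to 0.227). At 1 Mb or more 0 of 35 passed in limma, where 0.639% of all did (0.165% higher, 0.474% lower), with 10 at an unadjusted p under 0.05, and in trans 0 of 6, where 42.9% of all did (8.02% higher, 34.8% lower), with 0 at an unadjusted p under 0.05. The median log2 change of the locus was 0.15 in cis and 0.40 at 1 Mb or more, against 0.04 and 0.06 over all baits tested. H2bc9 had 34 and 27 cis calls in the 42kb deletion and 25, 32, 15 and 29 in the 36kb deletion, against 14 to 20 in E11.5 WT, without passing in either comparison.

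Pairs of the locus turned over less than those of the series in both deletions. In the 36kb deletion, 36 of 1219 eligible pairs were called in 0 of 4 deletion and all 4 WT libraries (2.95%, against 5.59% in the series) and 37 the other way (3.04%, against 5.36%). Of the lost pairs 16 joined the blocks, and of the gained pairs none did. In the 42kb deletion 161 of 1752 were lost (9.19%, against 21.1%) and 152 gained (8.68%, against 13.3%), 65 of the gained pairs within the distal block. H2ac8 with H2bc9 at 23.84 kb was the leading gained pair of both deletions by score. Deletion and WT embryos differed in more than the deletion as the labels give it: the Wnt1 bait was paired with chromosome 11 at 6 to 7 Mb in 187 to 214 calls in Ezh2cKO, 0 in all 6 deletion libraries, 185 to 206 in E11.5 WT, and 129 and 118 in E8.5 WT. Whether this difference has a part in the deletion results was not tested.

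Other genes related to histones and to the locus were read from lists. Of 14 replication-dependent histone genes elsewhere in the genome, 4 baits could be tested in cis calls. None passed in Ezh2cKO or in either deletion in limma, and 2 of 4 rose in E11.5 WT against E8.5 WT, where 28.9% of all baits were called, the bait with Hist2h2aa2 and Hist2h3c2 on the chromosome 3 cluster (log2 change 0.68 ± 0.22, limma adjusted p = 0.0253) and that with Hist2h2bb and Hist2h3b (0.65 ± 0.17, limma adjusted p = 0.0070). The list's median log2 changes were -0.03 for Ezh2cKO, 0.40 for the stage, -0.42 for the 36kb and -0.09 for the 42kb deletion, against 0.01, 0.03, 0.04 and 0.04 over all baits. Of 11 replication-independent histone variant genes only 1 bait could be tested, and it passed in no comparison.

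Of 20 genes for histone gene expression and the histone locus body, 11 baits could be tested. The number called was 2 of 11 in Ezh2cKO (10.8% of all baits), 1 at the stage comparison (28.9%), 2 in the 36kb deletion (11.1%) and 0 in the 42kb deletion (1.84%). In Ezh2cKO, Cpsf2, an RNA cleavage factor subunit, rose (0.60 ± 0.16, limma adjusted p = 0.0206) and Cpsf3, the cleavage enzyme, fell (-0.42 ± 0.06, limma adjusted p = 2.9e-05). In E11.5 WT against E8.5 WT, Lsm11, a subunit of the U7 particle that trims histone messages, rose (1.26 ± 0.19, limma adjusted p = 3.4e-05). In the 36kb deletion Cpsf2 (0.84 ± 0.23) and Pou2f1, which binds the octamer (0.80 ± 0.24), rose (limma adjusted p = 0.0234 and 0.0342). The list's medians were 0.09, -0.25, 0.40 and 0.43 for Ezh2cKO, the stage, the 36kb and the 42kb deletion.

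Of 20 neighbouring genes that are not histone genes, 13 baits could be tested. The number called was 3 of 13 in Ezh2cKO (10.8% of all baits), 2 at the stage comparison (28.9%), 1 in the 36kb deletion (11.1%) and 1 in the 42kb deletion (1.84%). In Ezh2cKO, Zfp184 rose as given, and Zfp322a (-0.46 ± 0.13) and Scgn, a calcium sensor gene (-0.53 ± 0.16), fell (limma adjusted p = 0.0309 and 0.0409). In E11.5 WT against E8.5 WT, Zscan12 (-0.83 ± 0.25) and Abt1 (-0.30 ± 0.11) fell (limma adjusted p = 0.015 and 0.0456). Nkapl, a retrogene of Nkap, rose in the 36kb deletion (1.60 ± 0.25, limma adjusted p = 0.00053) and in the 42kb deletion (1.81 ± 0.35, limma adjusted p = 0.0096). The deletions share PA2 WT libraries as their reference, so these 2 values are not independent. The list's medians were -0.09, -0.07, -0.10 and 0.15 in the same order.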

How the data were processed

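Promoter capture Hi-C was carried out on 24 libraries. Each deposited file lists a bait, the other end and a score of 5 or more per called pair. The score is that of the authors' caller, CHiCAGO per the names of the deposited files, which sets each pair against the background of its own library. The genome build was GRCm38/mm10 per the submitters' processing notes, and no version of the aligner or caller is stated there. Read depth is unknown, because the files hold only called pairs. Intervals are not given for that reason.

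Pairs were counted once, also where both ends are baits, and a fragment belonged to a block by its midpoint. Genes were matched from RefSeq by position. Values per 10000 called pairs were compared by exact two-sided permutation over libraries, within tissue for Ezh2cKO and the deletions, with Benjamini-Hochberg adjustment over 20 tests. Calls per bait were fitted with limma 3.58.1 (R 4.3.3) on log2((calls + 0.5) / library total × 10000), as 12 group means with a trend in empirical Bayes. Baits needed a mean of 5 cis calls, 1 call at 1 Mb or more, or 1 trans call. Counting used Python 3.11.15, numpy 2.4.6 and pandas 2.3.3. The fit of cis calls was tested on simulated data with changes in Ezh2cKO only, and the other fits and comparisons were not.

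Named baits were those past the threshold, at most 8 per comparison by size, and the 4 with the most calls per block. In the stage comparison at 1 Mb or more all 12 are named, the smallest after their values were seen. Named pairs were the 5 in the most libraries per class and at most 8 gained or lost by score, and trans partners the 8 loci called in the most libraries. The members and lists were chosen with earlier results of these data known. Alternatives were another pseudocount, filters, no division by the library total, scores of 7 or more, the first column's bait only, block assignment by any overlap, a replicate block and leaving out each library. Replicate numbers do not pair the libraries: replicate differences correlated at -0.086 to 0.158 over 66 pairs of groups (median 0.004), and 1 exceeded 0.1. Samples labelled E10.5 were not analysed here. For PA2 of the 36kb deletion, replicate 2 was grouped by its own title, since its genotype label names another sample.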

Additional observations from a re-analysis of the deposited data

Results flagged for a closer look

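Pairs within the distal block moved in opposite directions in Ezh2cKO against WT between FNP and Mx. In FNP they numbered 26.5 and 26.0 per 10000 called pairs in Ezh2cKO, against 24.1 and 25.6 in WT, a difference of 1.40. In Mx they numbered 24.5 and 23.0 in Ezh2cKO, against 25.2 and 25.5 in WT, a difference of -1.59. Each FNP Ezh2cKO library lay above both FNP WT libraries, and each Mx Ezh2cKO library lay below both Mx WT libraries. The difference between these tissues was not tested. In 21 groups of values no library lay apart from the others of its group by Dixon's criterion.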

How the results depend on the processing

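Class values below are differences in called pairs per 10000, tested by exact permutation, and counts are of locus baits past the limma threshold. Replicate numbers do not pair the libraries. With the replicate block, the between-block difference in Ezh2cKO was -3.46 (adjusted p = 0.156) and the proximal one 1.56 (0.156), and 1 bait passed in cis for the 36kb deletion, against 2 without it. Without division by the library total, the between-block difference in Ezh2cKO was -35.75 pairs (0.185). The proximal difference in Ezh2cKO was 1.37 as a percentage of the locus pairs (0.0617) and 2.91 at scores of 7 or more (0.11). Trans pairs in Ezh2cKO differed by 1.07 with the first column's bait only (0.0154), and by -0.53 without the H1f6 bait (0.0874), an alternative chosen after seeing the data.

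Differences that changed sign are given next, and none of them passed the threshold with either sign. Without division, the 36kb deletion gave -5.5 proximal, -31.25 distal and -33.75 elsewhere in cis, and the 42kb deletion gave -52.5 between blocks and -22.5 elsewhere. As a percentage of the locus pairs, the stage gave -1.52 proximal and -3.41 elsewhere, and the 42kb deletion gave -2.18 between blocks and -0.82 elsewhere. At scores of 7 or more, Ezh2cKO gave -0.14 distal, and trans pairs gave 0.68 in the 36kb and 0.15 in the 42kb deletion. With the first column's bait only, trans pairs gave 0.97 and 0.72 in these deletions.

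For cis calls per bait, the stage count of 8 was 18 without division and 16 at scores of 7 or more. The 36kb count of 2 was 0 with the looser filter, 7 without division, 5 at scores of 7 or more and 9 with the first column's bait only. The 42kb count of 1 was 0 without division and 2 at scores of 7 or more. For calls at 1 Mb or more, the 36kb count of 1 was 2 with a pseudocount of 1, 2 with the stricter filter, 8 without division, 2 at scores of 7 or more and 6 with the first column's bait only, and the 42kb count of 0 was 1 with the looser filter, 2 at scores of 7 or more and 4 with the first column's bait only. In trans, baits could enter the fit through the higher group alone, so these counts are no support for a difference: the Ezh2cKO count of 4 was 2 with the stricter filter, 2 at scores of 7 or more and 1 with the first column's bait only. The trans stage count of 4 was 1 with either filter, 2 without division, 1 at scores of 7 or more and 0 with the first column's bait only, and the 36kb count of 3 was 1 at scores of 7 or more and 1 with the first column's bait only. With pairs called in at least 6 and at most 2 libraries, Ezh2cKO lost 42 pairs and gained 84, 223 were called at E11.5 and not E8.5, and 131 at E8.5 and not E11.5 (44 at scores of 7 or more with the limits of the report). Calls with other histone loci averaged 21 in the 42kb deletion within 100 kb and 13.5 at scores of 7 or more, and 12.75 in E11.5 WT at scores of 7 or more. For all of these the cause was not tested.

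Leaving out each library in turn, the stage differences were -0.43 to 0.72 proximal, 5.48 to 5.79 distal, 5.87 to 7.21 between blocks, -0.67 to 1.27 elsewhere and 1.16 to 1.36 in trans. Those of Ezh2cKO were 1.32 to 1.80, -0.32 to 0.40, -3.80 to -3.11, 0.73 to 2.05 and 0.37 to 0.60 in the same order. Those of the 36kb deletion were 1.17 to 1.87, 0.32 to 2.48, -6.62 to -3.19, 0.91 to 2.74 and -0.27 to 0.18, and those of the 42kb deletion 1.25 to 2.18, 4.56 to 5.63, -0.69 to 2.07, 0.79 to 1.42 and -0.20 to 0.047. Counts of cis baits were 2 to 11 for the stage (2 without E8.5 replicate 2), 2 to 3 for Ezh2cKO, 0 to 4 for the 36kb and 0 to 0 for the 42kb deletion. Those at 1 Mb or more were 4 to 12 (7 without E8.5 replicate 1, 4 without replicate 2), 2 to 3, 0 to 1 and 0 to 0, and in trans 0 to 4, 3 to 5, 1 to 3 and 0 to 1. Fewer libraries entered each of these fits. The files list only called pairs, so a pair that is not listed has no value.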

Other observations

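A set of pairs was called in the deletion libraries alone, a pattern chosen after the values were seen and given without a test. Of 656 locus pairs called in all 6 deletion libraries, 12 (1.83%) were called in none of the other 18, against 1841 of 30960 (5.95%) in the series. H2bc9, an H2B gene of the distal block, was an end of 4 of the 12: it was paired with H4c4 at 36.6 kb (median score 15.1), with H4c2 at 210.6 kb (10.9), with H2ac4 at 205.3 kb (9.6) and with the bait of H2ac7, H2bc7 and H3c4 at 29.4 kb (8.81). Another 4 joined the proximal edge to genes beyond it: Olfr1359 was paired with the zinc finger gene Zkscan3 at 301.3 kb (14.8), with Nkapl at 234.1 kb (12.0) and with Trim27 at 527.1 kb (8.2), and the bait of H2ac13 and H2bc13 was paired with Zkscan3 at 312.6 kb (15.6).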
